A study of Homo sapiens with 9 samples.

Results

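The clustered histone genes were taken as all protein-coding genes whose GENCODE release 29 symbol starts with HIST1H, HIST2H, HIST3H or HIST4H. There were 71 such genes among the 58233 gene identifiers counted, with 55 in the HIST1 cluster on chromosome 6, 12 in HIST2 and 3 in HIST3 on chromosome 1, and 1 in HIST4 on chromosome 12. By product they comprised 6 H1, 17 H2A, 18 H2B, 15 H3 and 15 H4 genes.

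The genes were measured in 9 RNA-seq libraries of total RNA from UPCI-SCC-040, an established line of squamous carcinoma cells grown from a tumour of the tongue. The 3 groups were untreated controls, cells exposed to the cytokine TGF-β1 at 5 ng/ml over 48 h, and cells exposed to it at the same dose over 72 h, with 1 library each from passages 12, 13 and 8 (replicates 1, 2 and 3). The comparisons ask which genes differed in expression after treatment. TGF-β1 was given in medium free of serum and antibiotics, whereas the cells were grown with serum, and the control titles carry 0 h, so the cytokine, the loss of serum and the hours in culture cannot be told apart. Apart from the passage, nothing in the labels says that replicates were independent cultures. The p-values thus reflect the spread of these samples alone, which may be technical. All groups came from the same line. How RNA was selected for the libraries is not given in the sources used here.

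Histone proteins package DNA. H2A, H2B, H3 and H4 form the core of the nucleosome, and H1 binds the linker DNA where it enters and leaves that core. Most clustered histone genes are transcribed during S phase, when newly made DNA needs new nucleosomes, and their mRNAs end in a conserved stem-loop bound by SLBP instead of a poly(A) tail. NPAT, a substrate of the cyclin E and CDK2 kinase, drives their transcription at the histone gene clusters, and several of the genes are known to give polyadenylated transcripts as well.

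The stem-loop is the element that sets these mRNAs apart from others. Its sequences are shown because HIST1H3E and HIST1H4I, the 2 members with fold changes above 0, carried forms uncommon among the 32 members where it was found. It was searched on the sense strand of GENCODE release 29 transcripts after the stop codon, as 16 bases made of GG, any 2 bases, CTTNTNAG, any 2 bases and CC, and found in 32 of the 36 members with an annotated 3′ UTR. The other 35 members have models that end at the stop codon. Over all genes, 0.315% of 58676 held the motif in some transcript. Capitals mark the loop, and the differences from the commonest form count from the 5′ end of the 16 bases.
Commonest form, 17 members including HIST3H2BB: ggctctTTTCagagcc
HIST4H4, HIST1H4B, HIST1H4E, HIST1H4H and HIST1H4J (T4C and A13G): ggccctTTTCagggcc
HIST3H3, HIST1H2BC, HIST1H2BD, HIST1H2BF and HIST1H3G (C10A): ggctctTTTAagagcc
HIST1H4I, HIST2H4A and HIST2H4B (T4C, C10T and A13G): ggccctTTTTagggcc
HIST1H3E (T8C): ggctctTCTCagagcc
HIST1H2AG (A13G): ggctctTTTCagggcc
The paired changes T4C and A13G kept A with T or G with C at all 6 stem positions in the H4 forms. A13G alone in HIST1H2AG left 5 of 6 such pairs. This count leaves out G facing T (U in RNA), as in HIST1H2AG, which can also pair. The HIST1H3E stem-loop lies at chr6:26225596-26225611, 30 bases after the stop codon, that of HIST1H4I at chr6:27139654-27139669, 33 bases after it, and that of HIST3H2BB at chr1:228458538-228458553, 27 bases after it (GRCh38, all on the plus strand).

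Promoters were compared because the members moved together while their control elements differed by class. RefSeq windows from 250 bases before to 50 after the start (GRCh38.p14) were matched for 61 of the 71 members. Motifs were searched on both strands and may overlap. The 5 windows shown cover the 250 bases before the start and belong to a pair of genes that share a promoter, the largest decrease at 48 h, the most abundant member per length, an H4 gene with the H4 element alone and a gene that was not called. Capitals mark matches of any motif named in the next paragraph.
HIST1H2BJ, chr6:27132796-27133045, minus strand: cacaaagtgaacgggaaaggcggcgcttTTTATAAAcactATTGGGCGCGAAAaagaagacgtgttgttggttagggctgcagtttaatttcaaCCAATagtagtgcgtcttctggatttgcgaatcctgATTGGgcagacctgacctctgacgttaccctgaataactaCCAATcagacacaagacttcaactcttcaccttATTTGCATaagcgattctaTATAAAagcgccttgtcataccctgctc
HIST3H2BB, chr1:228457853-228458102, plus strand: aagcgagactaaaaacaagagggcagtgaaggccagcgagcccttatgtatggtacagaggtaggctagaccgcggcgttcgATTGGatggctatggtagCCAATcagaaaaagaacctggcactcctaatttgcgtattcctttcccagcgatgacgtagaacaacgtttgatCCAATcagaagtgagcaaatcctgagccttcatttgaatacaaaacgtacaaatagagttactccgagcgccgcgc
HIST1H1C, chr6:26056471-26056720, minus strand: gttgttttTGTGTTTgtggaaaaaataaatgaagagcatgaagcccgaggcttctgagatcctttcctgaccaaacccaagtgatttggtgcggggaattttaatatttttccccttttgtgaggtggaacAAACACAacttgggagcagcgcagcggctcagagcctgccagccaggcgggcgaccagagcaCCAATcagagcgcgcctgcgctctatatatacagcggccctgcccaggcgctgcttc
HIST1H4E, chr6:26204360-26204609, plus strand: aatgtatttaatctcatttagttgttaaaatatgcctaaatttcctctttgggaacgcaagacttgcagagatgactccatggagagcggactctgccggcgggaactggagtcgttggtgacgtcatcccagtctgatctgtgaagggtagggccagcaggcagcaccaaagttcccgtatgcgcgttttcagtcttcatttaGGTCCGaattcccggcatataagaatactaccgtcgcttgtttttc
HIST1H3E, chr6:26223928-26224177, plus strand: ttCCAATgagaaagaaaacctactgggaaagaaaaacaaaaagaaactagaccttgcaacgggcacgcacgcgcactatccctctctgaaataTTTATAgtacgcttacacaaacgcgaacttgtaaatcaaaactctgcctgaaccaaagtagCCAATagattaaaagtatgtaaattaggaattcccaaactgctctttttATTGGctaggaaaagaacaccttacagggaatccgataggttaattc

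The motif content of the 300-base windows followed histone class. CCAAT, the element bound by NF-Y, was present in 83.6% of member windows against 34.6% of 35116 RefSeq windows, and in every H1, H2A, H2B and H3 window but only 3 of 13 H4 windows. TATAAA was in 67.2% of member windows against 11.5% of all. The octamer ATTTGCAT, which OCT1 (POU2F1) binds, was in 11 of 14 H2A and 14 of 18 H2B windows, in no H1, H3 or H4 window, and in 1.77% of all windows. The H1 box AAACACA was in 6 of 6 H1 windows and 5.64% of all, and the H4 element GGTCCG in 12 of 13 H4 windows and 11.3% of all. TTTNGCGC, an E2F-type site, was in 19.7% of member windows against 1.79% of all. The window shared by HIST3H2BB and HIST3H2A held CCAAT and none of the other 5 motifs. For HIST1H4I the RefSeq start lies 694 bases from the GENCODE start. A match is a description of letters, and none was tested as a site.

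**Figure D1:**
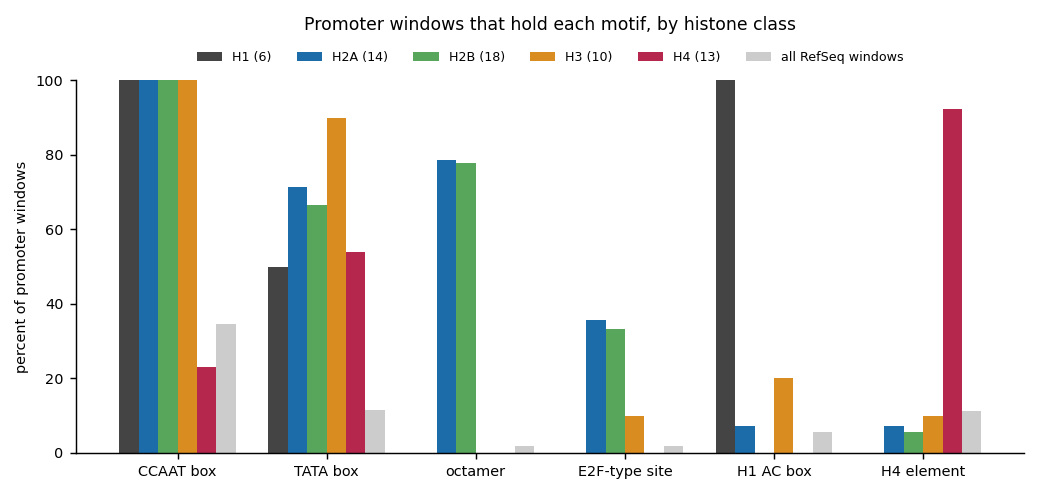
Percent of RefSeq promoter windows (y axis) that hold each motif (x axis), with 1 bar per histone class (number of windows in the legend) and a grey bar for all 35116 windows. The octamer stands only over H2A and H2B, the H1 AC box is in 6 of 6 H1 windows and the H4 element is in 12 of 13 H4 windows.

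Of the 71 members, 57 had enough counts to be tested, 6 had at most 25 counts over the 9 libraries, and 8 had none. Most members without counts are near-identical copies or overlap another gene, so their reads may have been left uncounted. HIST2H3PS2, HIST2H3C, HIST2H2AA3, HIST2H2AA4 and HIST2H4B, all without counts, share between 97.1% and 100% of their 50-base windows with other genes. HIST1H3D lies wholly within AL031777.3 on the same strand and HIST1H2AK wholly within HIST1H2BN on the opposite strand. Only HIST1H4G had no counts with neither a shared window nor an overlap. The members below the filter were HIST2H4A, HIST2H3A, HIST3H3, HIST1H2AA, HIST1H2BA and HIST1H2AM, of which HIST1H2AA, HIST1H2BA and HIST3H3 are known for expression in testis. Values of HIST1H4J and HIST1H4K, HIST1H2AI and HIST1H2AJ, HIST1H2BK, HIST2H3D, HIST1H2AD and HIST1H3J are uncertain for the same reasons, since 40.9% to 100% of their windows occur in another gene. HIST2H2AC shares 30.5% and HIST2H2BF 25.7% of their windows, and 28.2% of HIST1H2BE is overlapped by a gene on the opposite strand.

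Library totals ran from 12544690 to 20438727 counts. KRT5, a keratin of squamous epithelium, averaged 6523 CPM (counts scaled to library size) in controls, and PTPRC and CD3E of leukocytes and DCN and LUM of fibroblasts were at or near 0. The summed CPM of 9 fibroblast markers ran from 13.5 to 18.3 among controls, from 43.9 to 115 after 48 h and from 36.8 to 134 after 72 h, with COL1A1 and FAP higher at both times, and its part in the results was not tested. The 72 h library of replicate 3 stood apart, with the nuclear RNA MALAT1 at 1.54% of counts against 0.247% to 0.507% in the other 8 libraries.

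Clustered histone genes took a much smaller share of counted reads after treatment. Members took 1.83%, 2.33% and 2.10% of counts in control replicates 1, 2 and 3. At 48 h they took 0.364%, 0.494% and 0.473%. At 72 h they took 0.649%, 0.334% and 0.141%. All 6 treated libraries were below all 3 controls, the 48 h libraries lay close together, and the 72 h libraries were spread above and below them. Fewer cells in S phase and less histone RNA per cell cannot be told apart in these bulk samples.

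At 48 h against control, 52 of the 57 tested members fell and none rose. Calls were made by the edgeR quasi-likelihood test at 0.05 after Benjamini-Hochberg adjustment over all 15440 genes, of which 16% were called lower, 14.9% higher and 31% in either direction. The median log2 fold change of the 57 was -2.34, against -0.00 (-0.0019) over all genes, where the lower quartile was -0.428. Of the 57, 42 were at least 4-fold lower. In 55 members the 3 treated libraries lay wholly below the 3 controls, against 28.1% of all genes. DESeq2 also called 52 lower, and a fit of only the groups compared called 55, as did the fit without 72 h replicate 3, chosen after seeing the data. Of all genes these fits called 27.1%, 41.6% and 39.7% in either direction. The number called rested on the libraries kept, as it did for all genes. Leaving out 1 control gave 33 (replicate 1), 22 (replicate 2) and 31 (replicate 3), and leaving out 1 of the 48 h libraries gave 15, 30 and 29 in the same order. Of all genes, 17.9%, 16.6% and 18.8% were called in either direction without 1 control, and 17.8%, 24.5% and 23% without 1 of the 48 h libraries. The count was 15 or 8 when replicate 1 or replicate 2 was left out of every group, where 4.89% and 8.85% of all genes passed in either direction. In each of these fits 55 members kept a negative fold change, with medians of -2.48 to -2.18.

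At 72 h against control, 54 members fell and 1, HIST1H4I, rose, where 19.4% of all genes were called lower, 20.4% higher and 39.8% in either direction. The 52 members called at 48 h were all among the 54. The median was -2.61, against 0.03 (lower quartile -0.467) over all genes. There were 48 members at least 4-fold lower and 55 wholly below the controls, the latter against 27.7% of all genes. None lay wholly above the controls, against 27.3% of all genes. The 2 comparisons share the controls, so they are not independent. Without replicate 2 in every group 10 members were called lower, where 16.8% of all genes passed in either direction. In that fit the median was -2.39 and 55 members had a negative fold change.

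**Figure D2:**
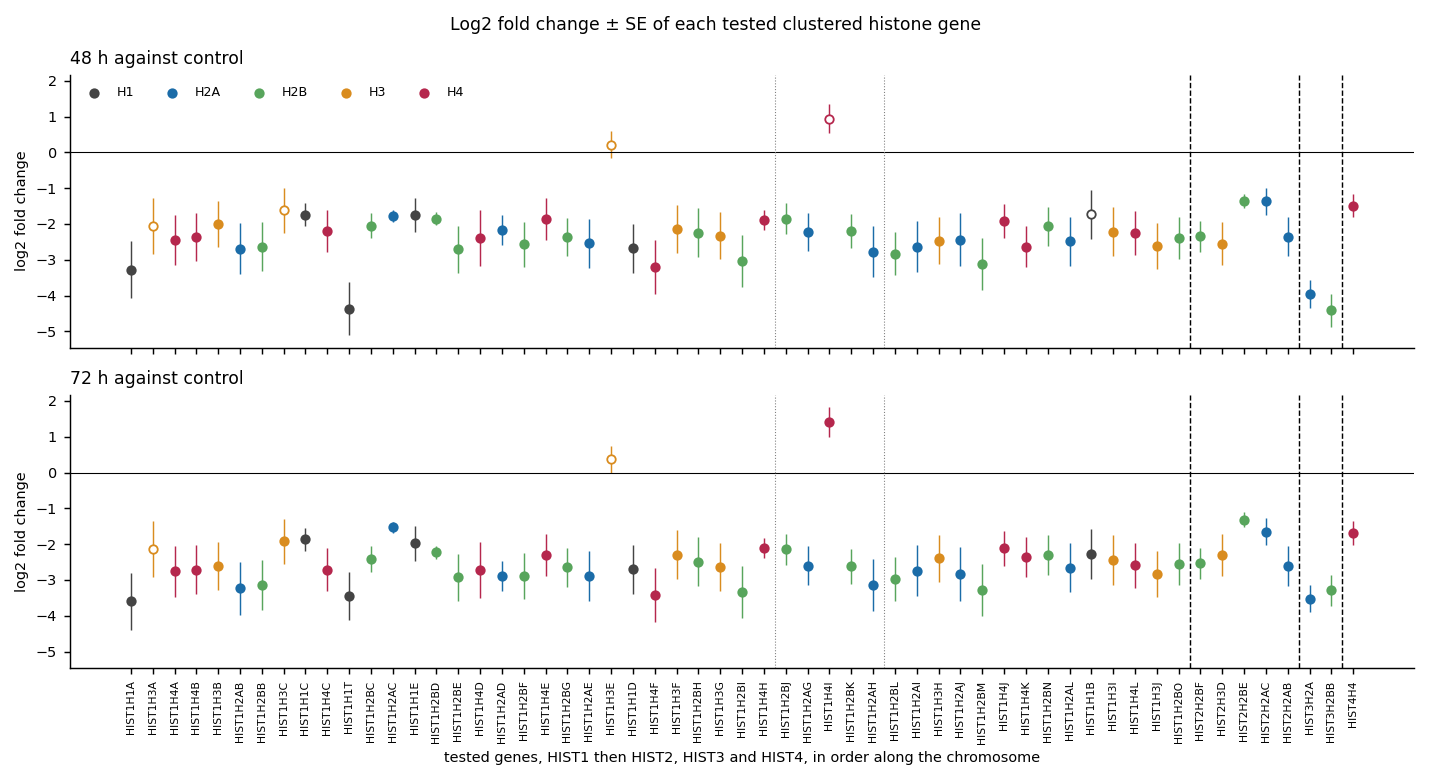
Log2 fold change (y axis) of the 57 tested members at 48 h (top) and 72 h (bottom) against control, in chromosome order, with bars of 1 approximate SE and colours for histone class. Filled points have an adjusted p under 0.05 and open points do not. Dashed lines part the clusters and dotted lines part stretches of HIST1, and HIST1H4I and HIST1H3E are the only points above 0 in either panel.

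The decrease was spread over all 4 clusters. HIST1 members fell in 44 of 49 cases at 48 h and 46 of 49 at 72 h, with medians of -2.33 and -2.62. Gaps over 200 kb part HIST1 into 4 stretches, the first of which held no tested gene. In the other 3 the medians at 48 h were -2.29, -2.20 and -2.45, and at 72 h -2.67, -2.60 and -2.57. The 5 tested HIST2 members all fell at both times, with medians of -2.34 and -2.30, as did HIST4H4 (106.6 ± 15.8, 38.1 ± 4.02 and 33.1 ± 17.5 CPM in controls, 48 h and 72 h, SD, n = 3), with log2 fold changes of -1.49 ± 0.33 and -1.69 ± 0.33 (approximate SE; edgeR adjusted p = 0.00995 and 0.00443). HIST2H2AC, an H2A gene, fell by 1.36 ± 0.38 and 1.65 ± 0.38 (edgeR adjusted p = 0.0254 and 0.00941, with the passage as a block 0.065 at 48 h), and HIST2H2AB by 2.36 ± 0.55 and 2.62 ± 0.55 (edgeR adjusted p = 0.0142 and 0.00718). At 48 h HIST2H2AC lost its call in 9 and HIST2H2AB in 5 of 18 alternative fits. HIST2H2BF, an H2B gene, fell by 2.34 ± 0.43 and 2.53 ± 0.43 (edgeR adjusted p = 0.00545 and 0.00291), and HIST2H3D, whose counts are uncertain, fell with log2 fold changes of -2.56 ± 0.60 and -2.30 ± 0.59 (edgeR adjusted p = 0.0142 and 0.015). Inside the stretches of HIST1 lie 2 other protein-coding genes, HFE and AL031777.3 (which covers HIST1H3D). They had adjusted p-values of 0.847 and 0.944 at 48 h and 0.307 and 0.518 at 72 h. HFE, which governs iron uptake, was at 9.95, 12.6 and 10.0 CPM in controls, 7.88, 11.6 and 11.7 at 48 h and 10.5, 12.7 and 17.3 at 72 h, so its groups overlapped.

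HIST3 had the lowest median fold change of the 4 clusters at both times, -4.19 and -3.41 over 2 tested members. HIST3H2BB, an H2B gene, was at 29.1, 34.6 and 26.7 CPM in controls, 1.45, 1.23 and 1.55 at 48 h and 4.74, 3.42 and 0.989 at 72 h. All treated libraries lay far below the controls, and 2 of the 72 h libraries lay above every 48 h library. It fell by 4.42 ± 0.46 on the log2 scale at 48 h (approximate SE; edgeR adjusted p = 0.000626) and by 3.29 ± 0.43 at 72 h (edgeR adjusted p = 0.000802). HIST3H2A, the H2A gene that shares its promoter, was at 28.8, 33.1 and 33.1 CPM in controls, 2.79, 2.14 and 0.978 at 48 h and 4.17, 2.34 and 1.73 at 72 h. It fell by 3.96 ± 0.39 (edgeR adjusted p = 0.000492) and 3.52 ± 0.37 (edgeR adjusted p = 0.000392). These calls held in every alternative fit.

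Every class fell. H2A and H2B, which pair in the nucleosome, fell in 12 of 12 and 17 of 17 tested members at both times, H1 in 5 and 6 of 6, H3 in 7 and 8 of 10, and H4 in 11 of 12 at each time. Median log2 fold changes at 48 h were -2.21 for H1, -2.47 for H2A, -2.36 for H2B, -2.18 for H3 and -2.22 for H4. At 72 h they were -2.48, -2.79, -2.62, -2.35 and -2.48. No difference between classes was tested. Of 11 H2A and H2B gene pairs that face away from each other across a gap under 1000 bases, 9 had both genes tested. Their log2 fold changes differed by a median of 0.37 at 48 h and 0.34 at 72 h, and by at most 0.669 and 0.889. Members that are not such pairs were not compared in this way.

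**Figure D3:**
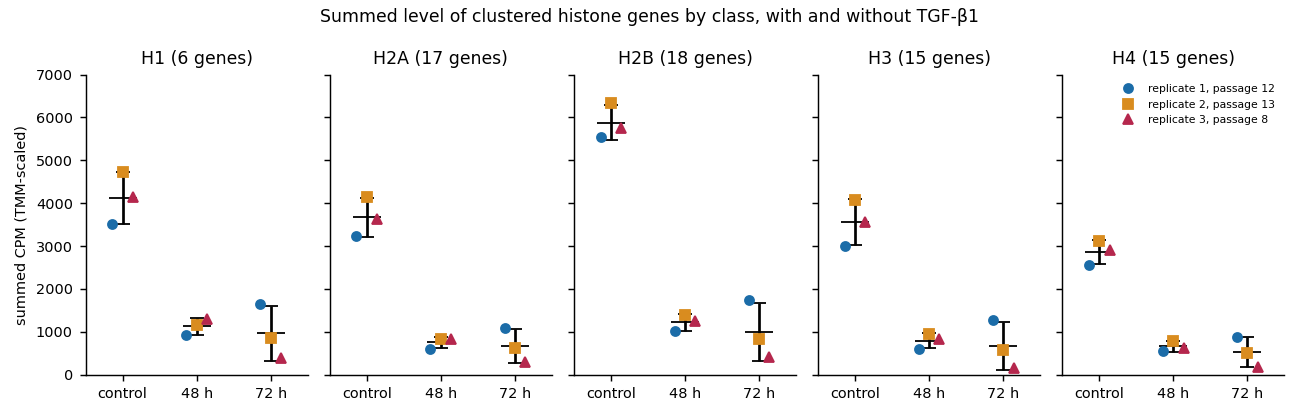
Summed CPM (y axis) of all members of each class in each library, by group (x axis), with the mean as a long dash and bars of 1 SD (n = 3). In each class the 3 controls lie above the 6 treated libraries, and 72 h replicate 1 is above and 72 h replicate 3 below all 48 h libraries.

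The shares of the classes and of single H1 genes differed between groups. H1 took 19.7% to 21.1% of all member counts in controls and 22.8% to 26.9% at 48 h, and H2B took 28.3% to 31.1% and 25.8% to 27.4%. At 72 h the ranges were 25% to 27% for H1 and 24.7% to 29.3% for H2B. H1 was thus higher and H2B lower in all 48 h libraries than in all controls. HIST1H1D took 13.8% to 15.8% of H1 counts in controls and 7.94% to 8.71% at 48 h, and HIST1H1A 2.01% to 2.32% and 0.692% to 0.898%. These shares were not tested. H3 took 19.3% and 16.8% in 72 h replicates 1 and 2 and 11% in replicate 3, the lowest of the 9 libraries, against 16.4% to 18.3% in the other groups.

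Among the linker histones, HIST1H1C and HIST1H1E had the highest CPM, which does not account for gene length. HIST1H1C was at 1208, 1549 and 1323 CPM in controls, 331.9, 386.0 and 504.8 at 48 h and 574.3, 316.2 and 227.8 at 72 h. The treated libraries were all below the controls, with no order between the times. It fell by 1.74 ± 0.32 at 48 h (edgeR adjusted p = 0.00431) and 1.87 ± 0.32 at 72 h (edgeR adjusted p = 0.00225), with adjusted p-values of 0.0805 and 0.0553 without replicate 2. HIST1H1E averaged 1396, 415 and 354 CPM over 3 libraries each, with SDs of 204.5, 55.9 and 239, and fell by 1.75 ± 0.48 (edgeR adjusted p = 0.0237) and 1.98 ± 0.48 (edgeR adjusted p = 0.0114). HIST1H1D fell by 2.68 ± 0.69 and 2.70 ± 0.69 (edgeR adjusted p = 0.0203 and 0.0152). At 48 h HIST1H1E lost its call in 8 and HIST1H1D in 7 of 18 alternative fits, against 1 of 18 for HIST1H1C. At 72 h HIST1H1E and HIST1H1D each lost it in 2 of 17, and HIST1H1C in 1 of 17. HIST1H1B had a fold change of -1.74 ± 0.69 at 48 h (edgeR adjusted p = 0.0907), which did not pass, and fell by 2.27 ± 0.71 at 72 h (edgeR adjusted p = 0.0335). That call was lost with the passage as a block (edgeR adjusted p = 0.0527), with only the groups compared (0.0581), without control 1, 2 or 3 (0.0615, 0.0893 and 0.0667) and without 72 h replicate 2 (0.0902). It was also lost without a filter on low counts (edgeR adjusted p = 0.165) and without replicate 2 in every group (edgeR adjusted p = 0.214). At 48 h a call of HIST1H1B was gained in 3 of 18 alternative fits. HIST1H1T, known as the testis H1, had only 36, 69 and 47 counts in controls and 0 to 10 in each treated library, and fell at both times (edgeR adjusted p = 0.00302 and 0.0037).

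Of the H2A genes, HIST1H2AE had the highest mean CPM over the libraries. It was at 736.8, 851.0 and 883.5 CPM in controls, 116.3, 176.4 and 132.1 at 48 h and 203.3, 111.9 and 17.6 at 72 h. The 48 h libraries were close together, and 72 h replicate 3 was the lowest of all. It fell by 2.54 ± 0.69 (edgeR adjusted p = 0.0252) and 2.89 ± 0.70 (edgeR adjusted p = 0.0126). HIST1H2AC behaved more evenly, with 510.7, 601.8 and 583.5 CPM in controls, 145.5, 161.4 and 188.3 at 48 h and 224.0, 184.0 and 179.7 at 72 h. No treated library stood apart for it, and it fell by 1.78 ± 0.16 (edgeR adjusted p = 0.000322) and 1.53 ± 0.15 (edgeR adjusted p = 0.0003), smaller changes with smaller errors. HIST1H2AG, whose stem-loop has the A13G change, fell by 2.22 ± 0.53 and 2.60 ± 0.54 (edgeR adjusted p = 0.0154 and 0.00631). HIST1H2AH fell by 2.77 ± 0.70 and 3.14 ± 0.72 (edgeR adjusted p = 0.0197 and 0.00968). At 48 h HIST1H2AE, HIST1H2AG and HIST1H2AH lost their calls in 9, 5 and 7 of 18 alternative fits, and HIST1H2AC in none.

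Of the H2B genes, HIST1H2BD was at 579.2, 761.1 and 651.8 CPM in controls, 171.1, 188.3 and 194.0 at 48 h and 177.8, 125.6 and 120.5 at 72 h. Its treated libraries were close together at both times. It fell by 1.85 ± 0.18 (edgeR adjusted p = 0.000492) and 2.23 ± 0.19 (edgeR adjusted p = 0.000175). HIST2H2BE was at 128.7, 141.0 and 128.8 CPM in controls, 49.3, 51.3 and 53.9 at 48 h and 73.9, 41.0 and 45.2 at 72 h. It fell by 1.37 ± 0.20 (edgeR adjusted p = 0.00176) and 1.32 ± 0.20 (edgeR adjusted p = 0.00127), the smallest decrease of the H2B class at both times. HIST1H2BC fell by 2.05 ± 0.35 and 2.42 ± 0.36 (edgeR adjusted p = 0.00367 and 0.00132), and HIST1H2BG by 2.36 ± 0.53 and 2.65 ± 0.54 (edgeR adjusted p = 0.0123 and 0.00592). HIST1H2BJ, whose promoter is printed above, fell by 1.85 ± 0.43 and 2.14 ± 0.44 (edgeR adjusted p = 0.0137 and 0.00574), beside HIST1H2AG on the other side of that promoter.

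Of the H3 and H4 genes, HIST1H3B was at 598.7, 838.4 and 776.4 CPM in controls, 125.2, 218.5 and 209.7 at 48 h and 231.2, 105.2 and 25.2 at 72 h. Controls and treated libraries did not overlap, and the 72 h values spanned the largest and the smallest of the treated values. It fell by 2.00 ± 0.65 (edgeR adjusted p = 0.0474, and 0.0868 with the passage as a block) and 2.61 ± 0.67 (edgeR adjusted p = 0.0152). HIST1H4C was at 445.9, 574.4 and 524.9 CPM in controls, 88.6, 138.8 and 112.1 at 48 h and 139.2, 76.6 and 18.7 at 72 h. Its 72 h libraries were spread in the same order as those of HIST1H3B, and it fell by 2.19 ± 0.59 (edgeR adjusted p = 0.0239) and 2.72 ± 0.60 (edgeR adjusted p = 0.00842). HIST1H3F, HIST1H3H and HIST1H3G fell by 2.14 to 2.46 at 48 h (edgeR adjusted p = 0.0428, 0.0242 and 0.0284) and by 2.29 to 2.64 at 72 h (edgeR adjusted p = 0.0276, 0.0211 and 0.0146). With the passage as a block, HIST1H3F and HIST1H3G were not called at 48 h (edgeR adjusted p = 0.072 and 0.0532). HIST1H4E, HIST1H4H and HIST1H4B, which share 1 form of the stem-loop, fell by 1.87, 1.90 and 2.36 at 48 h (edgeR adjusted p = 0.0419, 0.00176 and 0.0293) and had log2 fold changes of -2.30, -2.10 and -2.71 at 72 h (edgeR adjusted p = 0.0162, 0.000785 and 0.0142). The 48 h call of HIST1H4E was lost with the block (edgeR adjusted p = 0.0605). Of 18 alternative fits at 48 h, HIST1H3B lost its call in 11, and HIST1H3F, HIST1H3G and HIST1H4E in 10 each. HIST1H4C, HIST1H3H and HIST1H4B each lost it in 9, and HIST1H4H in none. Of 17 at 72 h, HIST1H3F lost its call in 6 and HIST1H3H in 4. HIST1H3B, HIST1H3G, HIST1H4B, HIST1H4C and HIST1H4E each lost it in 2. HIST1H3A did not pass at either time (-2.05 ± 0.78, edgeR adjusted p = 0.0793, and -2.14 ± 0.78, edgeR adjusted p = 0.0589). HIST1H3C did not pass at 48 h (-1.62 ± 0.62, edgeR adjusted p = 0.0779) or, with the block, at 72 h (edgeR adjusted p = 0.0388 without and 0.0515 with it). All treated libraries of both genes were below their controls. HIST1H3A gained a call in 3 of 18 alternative fits at 48 h and in 4 of 17 at 72 h. HIST1H3C gained a call in 3 of 18 at 48 h and lost its call in 8 of 17 at 72 h.

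Per length, levels could be compared among the 34 tested members with short models of 312 to 718 exonic bases. HIST1H1C was the highest in controls at 2118 RPKM (CPM per kilobase of exon), followed by HIST1H3B at 1795, HIST1H2AE at 1618, HIST1H3F at 1544, HIST1H4D at 1296 and HIST1H4C at 1184 RPKM, all means of 3. HIST1H1E, whose model of 754 bases lies just outside that range and was not ranked, averaged 1851 RPKM in controls, above HIST1H3B. Of the 34, HIST1H1T was the lowest at 4.29 RPKM. Next above it were HIST1H4J at 20.1 and HIST1H4K at 24.4 RPKM, which share windows with each other, so their counts are uncertain.

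HIST1H4I and HIST1H3E did not share in the decrease. HIST1H4I, an H4 gene, was at 6.09, 3.27 and 4.23 CPM in controls, 9.03, 6.92 and 10.3 at 48 h and 10.99, 5.87 and 19.5 at 72 h. Every 48 h library lay above every control, 1 of 57 members against 25.6% of all genes, whereas 72 h replicate 2 lay below control 1. The log2 fold change was 0.95 ± 0.41 at 48 h (edgeR adjusted p = 0.108) and 1.42 ± 0.41 at 72 h (edgeR adjusted p = 0.0223). The call at 72 h was lost without control 2, control 3 or 72 h replicate 3 (edgeR adjusted p = 0.0851, 0.0712 and 0.052), and without replicate 1 or 3 in every group (edgeR adjusted p = 0.0798 and 0.137). A call at 48 h was gained in 4 of 18 alternative fits. These were the replicate number as a block (edgeR adjusted p = 0.0332), no filter (0.00197), only the groups compared (0.016) and the fit without 72 h replicate 3 (0.0281), chosen after seeing the data. Its stem-loop, with the TTTT loop printed above, is shared only with HIST2H4A and HIST2H4B among the members with a stem-loop found.

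HIST1H3E, an H3 gene, was at 12.1, 15.4 and 10.4 CPM in controls, 14.6, 12.7 and 16.9 at 48 h and 10.2, 10.1 and 28.7 at 72 h. The groups overlapped, and 72 h replicate 3 was the highest library. Its log2 fold changes were 0.22 ± 0.39 (edgeR adjusted p = 0.699) and 0.37 ± 0.39 (edgeR adjusted p = 0.47). HIST1H3E was the member with the T8C stem-loop, and GENCODE annotates 1908 bases after its stop codon against 261 for HIST1H4I. What the sequence forms have to do with the levels was not tested.

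**Figure D4:**
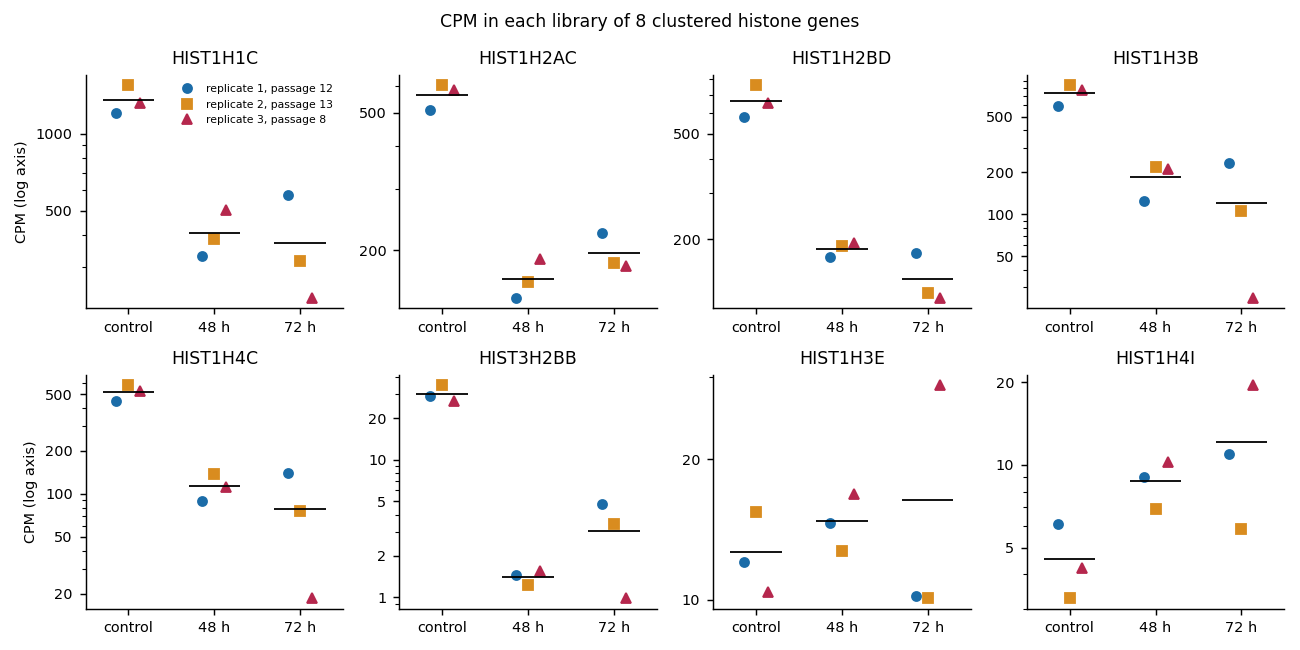
CPM on log axes (y axis, each panel with its own range) of 8 members in each of the 9 libraries, by group (x axis), with symbols for the replicate and a line at the mean of 3. The 6 genes that fell have all treated libraries below the controls, whereas HIST1H3E overlaps and HIST1H4I is highest in 72 h replicate 3 at 19.5 CPM.

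Between 48 h and 72 h no member passed the adjusted threshold in the edgeR fit of filtered genes or in DESeq2. Without a filter on low counts HIST3H2BB was called higher at 72 h (edgeR adjusted p = 0.00967). The edgeR adjusted p-values of members ran from 0.539 to 0.994, and no gene of all 15440 passed (0%). At an unadjusted p under 0.05, HIST3H2BB was the 1 member that passed in edgeR (log2 fold change 1.12 ± 0.46), against 8.95% of all genes. The median difference was -0.23 with all libraries and 0.18 without 72 h replicate 3, so that library decided its sign.

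The 72 h libraries were spread more widely for the histone genes than for the median gene, and the S phase genes described below had the same order of libraries. Over the 57 members the median SD of log2 CPM came to 0.186 among controls, 0.293 after 48 h and 1.52 after 72 h, against 0.150, 0.239 and 0.300 over all 15440 genes. At 72 h, 52 members were highest in replicate 1 (passage 12) and lowest in replicate 3 (passage 8), with replicate 2 (passage 13) between. In 52 members replicate 3 was below all 48 h libraries, and in 49 replicate 1 was above all of them. The shares of all genes with these orders are not given here, so how far they are particular to the members was not tested. Each passage has 1 library at each time, so passage, culture and library cannot be told apart.

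Set against the control of the same passage, the median member kept 18.7%, 20.7% and 20.2% of its level at 48 h in replicates 1, 2 and 3. At 72 h it kept 34.7%, 12.9% and 3.85%. In 72 h replicate 3, 47 of 57 members were under 10% of control, against 1 in 72 h replicate 1 and 14 in 72 h replicate 2. The share of all genes under 10% is not given here for these libraries. In 72 h replicate 3 HIST1H1A, an H1 gene, was the lowest member, with 0.706% left, followed by HIST1H4F at 0.929%. Highest there were HIST1H4I at 460% and HIST1H3E at 276%, then HIST2H2BE at 35.1%, HIST1H2AC at 30.8% and HIST1H2BD at 18.5%.

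**Figure D5:**
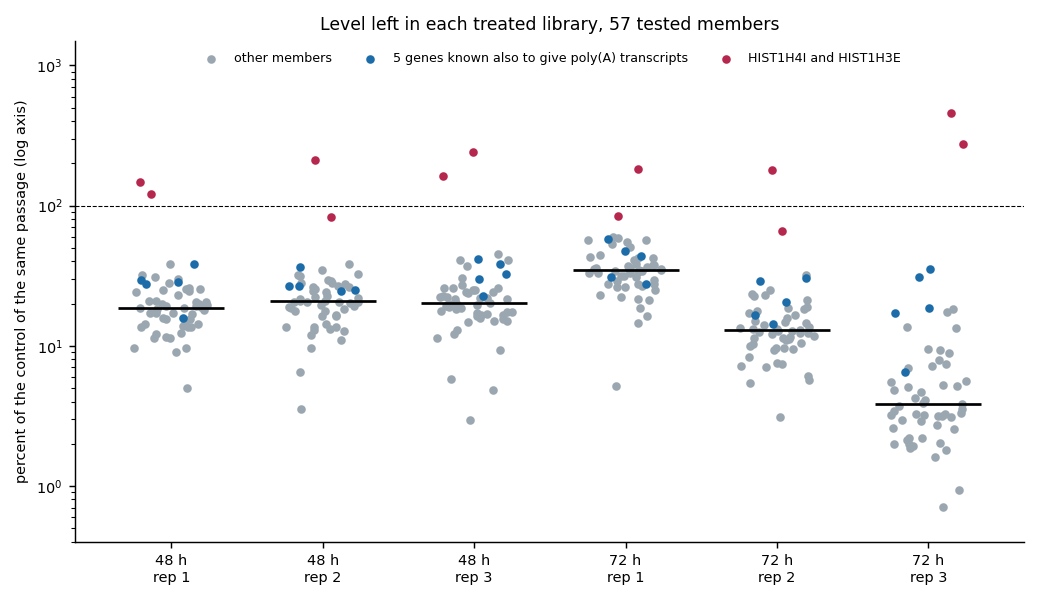
Level of each of the 57 tested members as a percent of the control of the same passage (y axis, log axis) in each treated library (x axis), with a black line at the median and a dashed line at 100. HIST1H1T, at 0 in 48 h replicate 2, is not drawn there. The medians are 18.7, 20.7, 20.2, 34.7, 12.9 and 3.85 percent, and in 72 h replicate 3 the blue points of HIST2H2BE, HIST1H2AC, HIST1H2BD and HIST1H1C lie above most others.

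The 5 members listed here as known also to give polyadenylated transcripts, HIST1H1C, HIST1H2AC, HIST1H2BD, HIST1H2BK and HIST2H2BE, all fell at both times. Their median log2 fold changes were -1.78 at 48 h and -1.87 at 72 h, against -2.36 and -2.63 for the other 52 tested members, and the difference was not tested. The list may be incomplete, so the other 52 may hold more such genes. The part of the 5 listed members in member counts lay between 15.2% and 15.7% among controls and between 17.4% and 21.1% after 48 h. It was 17.4%, 21.3% and 41.6% in 72 h replicates 1, 2 and 3. The last library stood far above the rest. In it HIST1H1C made up 59.0% of H1 counts, against 31.9% to 38.9% in the other 8 libraries. HIST1H2BK, whose counts are uncertain, was at 6.45% of control in that library and lay lower than the other 4. It fell by 2.20 ± 0.47 and 2.62 ± 0.48 (edgeR adjusted p = 0.0101 and 0.00395). Of 7 tested RNAs known to lack a poly(A) tail, SCARNA7 was higher at both times (against 14.9% and 20.4% of all genes) and the others were not called. The 25 listed summed to between 699 and 712 CPM among controls, between 361 and 687 after 48 h and between 499 and 980 after 72 h. The part of RNA selection in these results was not tested.

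Genes of S phase and DNA replication fell alongside. Of 40, 32 were lower at 48 h and 39 at 72 h (against 16% and 19.4% of all genes), with medians of -1.46 and -1.77. The largest decreases were those of E2F2, an activator of S phase genes (-3.01 ± 0.43, edgeR adjusted p = 0.00193, and -3.31 ± 0.44, edgeR adjusted p = 0.000906), MCM10, which helps start replication (-1.90 ± 0.62, edgeR adjusted p = 0.0471, and -2.36 ± 0.63, edgeR adjusted p = 0.0182), and RFC3 of the clamp loader (-1.96 ± 0.45, edgeR adjusted p = 0.0128, and -2.28 ± 0.46, edgeR adjusted p = 0.00536). Their summed CPM was 32.0%, 43.3% and 37.6% of the control of the same passage at 48 h and 51.5%, 27.2% and 15.2% at 72 h, in the same order of libraries at 72 h as the histone genes. The summed CPM of all histone members was 20.8%, 22.9% and 24.2%, then 37.2%, 15.2% and 7.16%. The part of S phase in the histone result was not tested.

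Genes that make and process histone mRNA changed less. Of 22, 11 were lower at 48 h and 12 at 72 h, against 16% and 19.4% of all genes. None was higher, against 14.9% and 20.4% of all genes. The median of the 22 was -0.56 at both times. SLBP, which binds the stem-loop, fell from 205 to 96.4 and 96.8 CPM (-1.09 ± 0.22, edgeR adjusted p = 0.00578, and -1.08 ± 0.22, edgeR adjusted p = 0.00424). ERI1, the nuclease that trims the stem-loop end, fell by 1.10 ± 0.21 (edgeR adjusted p = 0.00474) and 1.16 ± 0.21 (edgeR adjusted p = 0.00265). POU2F1, which binds the octamer, fell by 0.94 ± 0.14 (edgeR adjusted p = 0.00187) and 1.19 ± 0.14 (edgeR adjusted p = 0.000495). NPAT had a fold change of -0.26 ± 0.12 at 48 h (edgeR adjusted p = 0.112) and fell by 0.44 ± 0.12 at 72 h (edgeR adjusted p = 0.0143).

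Of 24 histone chaperone and acetyltransferase genes, none was higher at either time (against 14.9% and 20.4% of all genes). Of the 24, 13 were lower at 48 h and 15 at 72 h (against 16% and 19.4% of all genes). Leading them were HJURP, the chaperone of CENPA, which fell by 1.49 ± 0.48 (edgeR adjusted p = 0.0468) and 2.24 ± 0.50 (edgeR adjusted p = 0.00861), and CHAF1B and CHAF1A of the assembly factor CAF-1, which deposits H3 and H4 behind the replication fork. Of 11 tested histone variant genes outside the clusters, 5 were lower at 48 h and 7 at 72 h (against 16% and 19.4% of all genes). They were led by CENPA (-1.44 ± 0.45, edgeR adjusted p = 0.0379, and -2.44 ± 0.46, edgeR adjusted p = 0.00436), followed by H2AFX and H2AFZ. H3F3B, which encodes the replication-independent H3.3, was not called (-0.17 ± 0.14, edgeR adjusted p = 0.39, and -0.17 ± 0.14, edgeR adjusted p = 0.375), and it averaged 731, 650 and 652 CPM. H1F0, the linker histone of resting cells, averaged 247, 159 and 286 CPM and was not called (edgeR adjusted p = 0.139 and 0.592).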

How the data were processed

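The deposited values are counts of reads per gene and library, not normalized, as the files show. Per the submitters' processing notes, STAR 2.5.2a and featureCounts 1.5.0-p1 were used with hg38, beside bcl2fastq 2.17.1.14 and FastQC 0.11.5. Which gene annotation and strand setting were used, and how reads with several matches were handled, is not given in the sources used here. Copies and overlapping genes may therefore share or lose reads.

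Identifiers were matched to GENCODE release 29 (57895 found, 338 not). All 9 libraries entered 1 edgeR model of group (edgeR 4.0.16, R 4.3.3) after filterByExpr and TMM scaling, which left 6 residual degrees of freedom. The robust quasi-likelihood test was adjusted by Benjamini-Hochberg, with calls at 0.05. TMM factors also scale the CPM values. Each SE is approximate and equals the size of the log2 fold change divided by √F. RPKM is CPM per kilobase of exon union. Stem-loops, shared windows of 50 bases and promoter motifs were found with Python 3.11.15 and pandas 2.3.3.

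Same-numbered libraries share a passage per the labels. Their deviations from the group means correlated at 0.11, 0.078 and 0.12 for 48 h with control, 0.038, 0.11 and 0.1 for 72 h with control, and -0.025, 0.49 and 0.49 for the treated groups. Libraries with different numbers were not compared in this way, so these values do not decide whether the libraries are paired. The pairing was taken from the labels, and an alternative with the replicate number as a block kept 4 residual degrees of freedom. Other alternatives were DESeq2 1.42.0, other scaling factors, no filter, 1 CPM in 3 libraries, only the groups compared, at least 2-fold, and omission of libraries or replicate numbers. The edgeR test was tested on simulated data. At 48 h against control it recovered 3.08% of 65 genes changed 1.5-fold, 32.8% of 67 changed 2-fold and 84.1% of 63 changed 4-fold, with 10 false calls among 15087 genes. Far fewer genes were changed there than the 31% of genes called at 48 h, which made the adjustment stricter. These shares therefore do not give the recovery in the data.

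Members named with values were the most abundant of each class, the tested HIST2, HIST3 and HIST4 genes, those called higher or not called, those listed as giving polyadenylated transcripts and the 3 largest changes among those called at both times. For the other lists, SLBP, NPAT and up to 3 members with the largest change called at both times were named. H3F3B, H1F0, KRT5, the absent markers, HFE, HIST1H1A, HIST1H4F and the most abundant genes per length were chosen after their values were seen. The members and lists were chosen with earlier results of these data known.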

Additional observations from a re-analysis of the deposited data

How the results depend on the processing

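Counts of members that fell or rose were within 1.5 times the reported ones under other scaling factors, a filter of 1 CPM in 3 libraries and a 2-fold threshold, and other scaling factors moved the median of all genes by at most 0.0552 (log2). Without a filter on low counts 63 members were tested, 15 fell and 1 rose at 48 h, 22 fell and 2 rose at 72 h, and 1 rose and 0 fell at 72 h against 48 h. In that fit the share of all genes called was 13.4% at 48 h and 17% at 72 h, and the cause was not tested. With the replicate number as a block, pairing the passages, 43 fell and 1 rose at 48 h and 52 fell and 1 rose at 72 h. Of all genes, 33.1% and 41.9% were then called. With only the groups compared 1 rose at 48 h, as without 72 h replicate 3, which was chosen after seeing the data. DESeq2 gave 2 that rose at 72 h. With libraries or replicate numbers left out, 8 to 55 members fell and 0 to 1 rose at 48 h, 10 to 55 fell and 0 to 1 rose at 72 h, and none fell or rose at 72 h against 48 h. In those fits 4.89% to 39.7% of all genes were called at 48 h and 16.8% to 37.6% at 72 h. Of the named members' values, 1552 kept their side of the threshold, 197 lost their call, 18 gained one and none that was called changed sign. Values not called in either fit could change sign and still count among the 1552. HIST1H1T, HIST1H2AC, HIST1H2BD, HIST1H4H, HIST2H2BE, HIST3H2A and HIST3H2BB kept their calls at both times in every fit that gave a value. Of 29 named members called at 48 h, the omission of 1 control or 48 h library ended the call of 9 to 17, and the block that of 5. Of 32 called at 72 h, the omission of 1 control or 72 h library ended 0 to 6 calls, the block 2, and the omission of replicate 2 from every group 22, as it did at 48 h. Beyond the calls given with the block beside their genes, the block changed no call of a named member. In the simulation, where few genes were changed, changes of 2-fold or less were often missed, which does not measure how often they were missed in the data.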

Other observations

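Beside the 71 protein-coding genes, 19 pseudogenes carry HIST symbols. HIST2H2BC, an H2B pseudogene of the HIST2 cluster, was at 3.13, 2.31 and 3.22 CPM in controls, 7.68, 4.35 and 12.8 at 48 h and 5.30, 4.90 and 12.8 at 72 h. All treated libraries lay above all controls, and it rose by 1.51 ± 0.47 on the log2 scale at 48 h (edgeR adjusted p = 0.0368) and by 1.41 ± 0.47 at 72 h (edgeR adjusted p = 0.0391). It shares windows with HIST2H2BE, HIST2H2BF and HIST3H2BB, all of which fell, so its counts are uncertain. HIST1H1PS1 was the only other one with enough counts to be tested and was not called (edgeR adjusted p = 0.529 and 0.13), and the remaining pseudogenes had 0 to 60 counts over the 9 libraries.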
